A study of Mus musculus with 142 samples.

Results

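The ∆COSN12 allele lacks OSN sites 1 and 2 of early replication control element (ERCE) C and keeps site 3 of the same element. OSN sites are places bound by Oct4, Sox2 and Nanog, the transcription factors that hold embryonic stem cells in the pluripotent state. The allele was profiled in 3 clones, B6, C6 and D3, each with an early and a late S-phase library, so that it accounted for 6 of the 142 samples of the series. All clones are F121-9 mouse embryonic stem cells (mESCs), a hybrid line in which the homologs of each chromosome come from different mouse strains and can be told apart by their SNPs, grown in 2i + LIF and edited with CRISPR. The deletion is on the homolog of genome 1 in every ∆COSN12 clone (DEL, labelled C2OSN-129 after its strain), and the intact homolog of genome 2, from CAST, is the control of the same cells (CON), so the deletion and the strain of the homolog cannot be told apart within a clone. Per the study's results, site 2 was removed in the ∆COSN1 line, and the labels do not name the parent clone. If the 3 clones descend from 1 edited parent, the spread between them leaves out the spread between separate edits of site 1. ∆COSN12 was set beside 4 other deletions, all on genome 1 and all carrying the loss of site 1. These were ∆COSN1 (site 1 alone, 2 clones), ∆COSN123 (sites 1 to 3, 1 clone in 4 cultures), ∆A.COSN12 (sites 1 and 2 with all of ERCE A, 2 clones) and ∆AOSN.COSN12 (sites 1 and 2 with the OSN site of A, 2 clones).

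Replication timing (RT) is the time in S phase at which a stretch of the genome is copied, and in mammals it is set over large domains that hold many genes. ERCEs are segments that keep such a domain early when it would otherwise be late. The Dppa domain of mouse chromosome 16 has 3 of them, A, B and C, and is named after Dppa2 and Dppa4, a pair of genes that mark pluripotent cells. In E/L Repli-seq, cells are pulsed with BrdU, here for 2 h, the newly made DNA of early and late S-phase cells is sequenced, and RT is given as log2 of early over late reads. Values above 0 are called early here and values below 0 late. The question the clones address is which part of the domain stays early when site 3 is the only OSN site left in C.

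Matched to mm10, the guide pairs bounded C-OSN-1 at chr16:48613172-48614742 (1571 bp), C-OSN-2 at chr16:48608216-48608754 (539 bp) and the intact C-OSN-3 at chr16:48606321-48607163 (843 bp). All 3 sites lay inside introns of Morc1, a gene needed for sperm formation, and none overlapped an exon or UTR of the annotation. The deletions together removed 2110 bp, or 5.41% of the 39.0 kb of element C (chr16:48581334-48620351). Site 3 is separated from site 2 by 1052 bp, and site 2 from site 1 by 4417 bp. ERCE A (chr16:48308248-48311866, in Dppa2 and over one of its annotated transcript starts) lies 269 kb from C, and ERCE B (chr16:48396808-48443056, over the start of Morc1) lies 138 kb from C. The guides that cut the deleted sites are shown because they define the allele, with the guide in lower case and the PAM, the short motif Cas9 needs, in capitals. Each matched chromosome 16 at 1 place.
C-OSN-1 guide 1: gagtaactcaggcaaaacgtTGG
C-OSN-1 guide 2: ggaccggccaacctcccttaAGG
C-OSN-2 guide 1: agagtttgtagaatgctccgGGG
C-OSN-2 guide 2: acaagcatggtagggcctaaAGG

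The deleted sites were searched on both strands for the octamer ATGCAAAT bound by Oct4, a Sox core CATTGT and a Nanog core TAATGG. The search found 1 Sox core in site 2 and 2 Sox and 2 Nanog cores in site 1. No octamer was found in any of the 3 sites, and the intact site 3 held none of these 3 motifs in these letters. Such short motifs are common. Of all tiles of chromosome 16 as long as site 1, 67.0% held the Sox core, 52.1% the Nanog core and 13% the octamer. Of tiles as long as site 2 the shares were 31.4%, 22.4% and 4.83%, and of tiles as long as site 3 they were 44.6%, 32.8% and 7.44%. In the 300-base promoters of RefSeq (GRCm38.p6) they were 12.6%, 7.73% and 1.74%. The 300 bases of each deleted site with the most matches are printed on the plus strand, with motifs in capitals, to show what was removed. The letters are those of the mm10 reference (C57BL/6J), not of genome 1 of the cells. The stretches are chr16:48608406-48608705 in site 2 and chr16:48614421-48614720 in site 1.
C-OSN-2: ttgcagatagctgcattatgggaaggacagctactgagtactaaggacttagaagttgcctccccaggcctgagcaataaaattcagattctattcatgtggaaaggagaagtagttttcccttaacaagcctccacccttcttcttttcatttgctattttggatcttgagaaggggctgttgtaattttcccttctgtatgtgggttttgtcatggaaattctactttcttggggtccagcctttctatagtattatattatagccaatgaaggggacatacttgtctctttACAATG
C-OSN-1: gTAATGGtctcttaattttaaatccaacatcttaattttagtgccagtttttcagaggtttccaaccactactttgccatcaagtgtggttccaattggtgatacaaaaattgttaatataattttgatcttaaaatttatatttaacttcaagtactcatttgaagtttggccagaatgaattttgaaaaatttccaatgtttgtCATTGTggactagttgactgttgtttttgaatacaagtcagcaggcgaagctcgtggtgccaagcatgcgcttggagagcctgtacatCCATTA

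RT was available in 50 kb windows, and the 3 sites fall in the same window, 48.6 to 48.65 Mb. Windows are named here by their start. The authors smoothed the values over 300 kb, so neighbouring windows are not independent and no count of windows is a count of separate events. Each ∆COSN12 profile had values in 90.7% to 93.3% of 49264 autosomal windows and in 79 or 80 of the 80 windows between 46.5 and 50.5 Mb. As a check of the labelled cell type, all 8 genes chosen for the embryonic stem cell state replicated early on both homologs (mean RT 0.39 to 1.35), as did 4 of 6 genes of other lineages (range over the 6 genes −0.65 to 1.21). RT is not expression, so the check says only that these loci were copied early.

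DEL replicated later than CON on both sides of a centre where no difference was called, with its largest delay past C, on the side away from A and B. On the side of A, homologs without a deletion differed in the same way, as given further on. At the window with sites 1 to 3 (48.6), DEL was 0.46, 0.86 and 0.57 in clones B6, C6 and D3, and CON was 0.73, 1.06 and 1.11. DEL was below CON in each clone, but the groups overlapped. Further from B, at 48.7, DEL was 0.24, 0.36 and 0.23 against CON of 1.10, 1.11 and 1.01. There the 3 DEL values lay far below the 3 CON values, with a mean difference of −0.80 ± 0.06 (SD, n = 3 clones; limma, adjusted p = 7.34e-08). The largest delay was at the next window, 48.75, which holds the start of Trat1, an adaptor of the T cell receptor. DEL was 0.21, 0.24 and 0.12 and CON 1.12, 1.15 and 0.74 at this window, a difference of −0.81 ± 0.16 (adjusted p = 1.81e-07). It lies 163.5 kb from the middle of the deleted sites, on the side away from A and B.

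**Figure D1:**
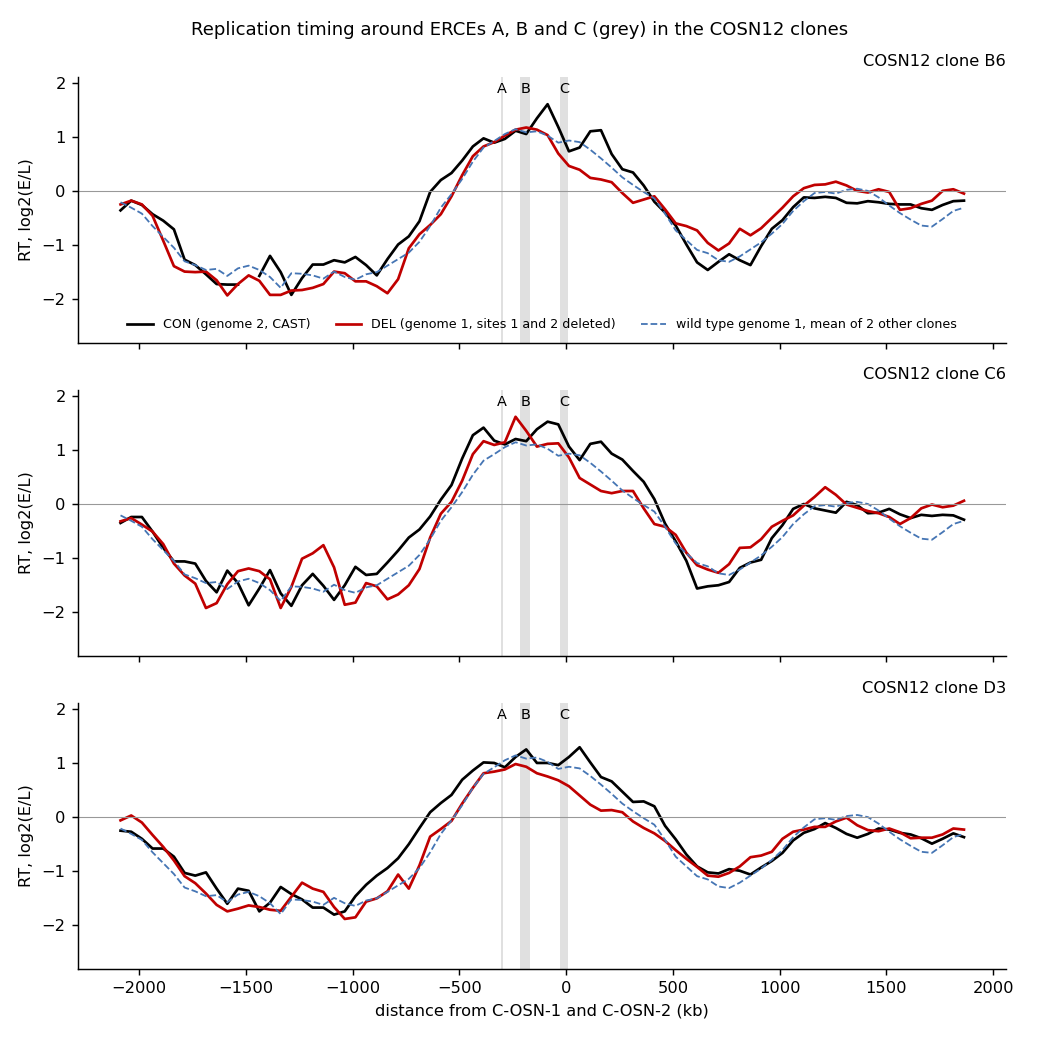
RT (log2 of early over late) of the DEL and CON homologs of each ∆COSN12 clone by distance in kb from C-OSN-1 and C-OSN-2, with the mean wild type genome 1 homolog of 2 other clones as a dashed line and ERCEs A, B and C in grey. Between A and B, DEL is near or above CON in B6 and C6 and below it in D3. In all 3 clones DEL is below CON between B and C and just past C. In the window at 48.7 Mb DEL was 0.24, 0.36 and 0.23 and CON 1.10, 1.11 and 1.01.

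At the centre, which holds A and B, no delay was called. At 48.35, DEL was 1.13, 1.61 and 0.98 and CON 1.11, 1.2 and 1.11, a difference of 0.10 ± 0.28 (adjusted p = 0.406). The smallest difference was at 48.4, where Morc1 and the predicted gene Gm5485 start. DEL was 1.17, 1.35 and 0.93 there and CON 1.05, 1.16 and 1.25, a difference of −0.00 ± 0.28. The clones differed in sign at this window, with D3 lower on DEL and B6 and C6 higher. Over the 4 windows from 48.25 to 48.45 Mb, DEL averaged 1.06, 1.30 and 0.91 in B6, C6 and D3 and CON 1.00, 1.16 and 1.07. The mean difference was 0.01 ± 0.16, and the mean of the wild type genome 1 homologs was 1.05. DEL peaked at 48.4 in B6 and at 48.35 in C6 and D3, that is at ERCE B. CON peaked at 48.5 in B6 and C6 and at 48.65 in D3, between B and C or just past C. The mean curves of wild type homologs also peaked at B, at 48.35 for genome 1 and 48.4 for genome 2 (both 1.14). At 48.5 these curves were at 1.02 and 0.99, so the CON peak of ∆COSN12 was not that of wild type homologs in general.

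Over the 2 Mb from 47.5 to 49.5 Mb, 36 of 40 windows could be tested, and 22 were called later and 4 earlier on DEL at an adjusted p of 0.05 (limma). Over the 4 Mb, 64 windows were tested, with 22 later and 8 earlier. The background of this contrast is high, since 17.0% of 36382 windows genome-wide were called later and 16.9% earlier in the same 3 clones, all of them comparisons of genome 1 with genome 2. The later windows made 2 groups. One ran from 47.7 to 48.25 Mb on the side of A, with differences from −0.20 to −0.64 among the called windows. The other ran from 48.45 to 49.05 Mb, with differences from −0.24 to −0.81. The 4 earlier windows within the 2 Mb, at 49.2, 49.25, 49.4 and 49.45, lay in the late region past the domain. The largest advance was at 49.45, where DEL was −0.82, −0.80 and −0.74 and CON −1.37, −1.08 and −1.06, a difference of 0.38 ± 0.15 (adjusted p = 0.000852). Both homologs were late there, and the ∆COSN1 clones had a mean difference of 0.51 in the same window.

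**Figure D2:**
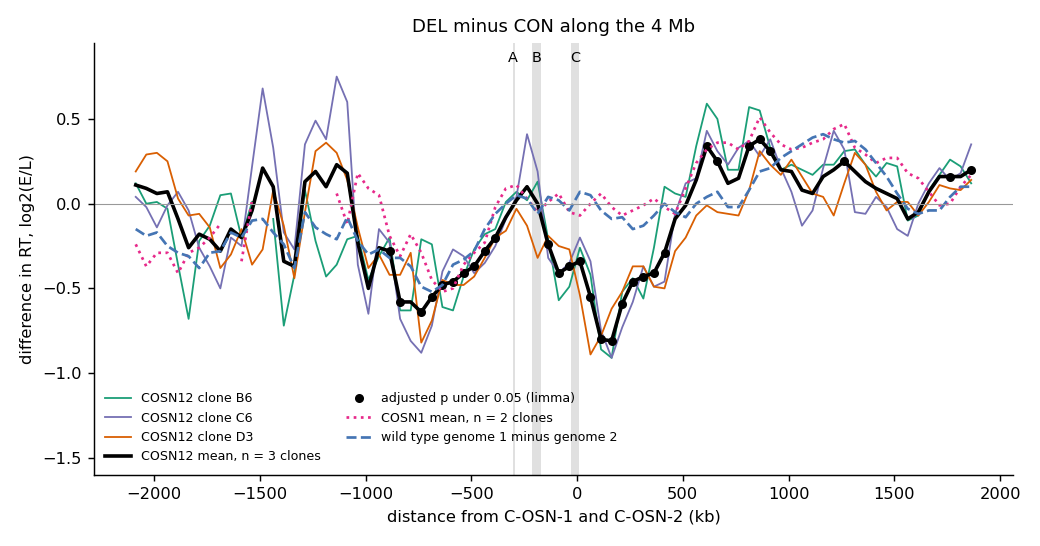
DEL minus CON of RT (log2 units) in each ∆COSN12 clone and their mean by distance in kb from the deleted sites, with the mean of the 2 ∆COSN1 clones and the difference of wild type genome 1 and genome 2 homologs. The ∆COSN12 mean reaches −0.81 past C, where the 2 other lines stay near 0 (−0.02 and −0.09), whereas on the side of A all lines fall below 0, and filled points mark windows with an adjusted p under 0.05.

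The strain difference was measured on homologs that had no deletion. Wild type homologs of genome 1 were available from 2 clones whose deletions are on genome 2 (CR11.8k clone 50 and CTSS clone C4), and wild type homologs of genome 2 from 43 clones. The stretches that follow were chosen after the values were seen, so they are described with no test. From 47.75 to 48.2 Mb (9 windows), DEL averaged −0.62, −0.62 and −0.50 in B6, C6 and D3 and CON −0.19, −0.08 and −0.01. The wild type genome 1 homologs averaged −0.55 and −0.56 over the same windows, so the deleted homologs lay at their level (mean difference −0.03). Wild type genome 1 minus wild type genome 2 was −0.37 there, beside −0.48 for DEL minus CON in ∆COSN12 and −0.35 in ∆COSN1. The difference on this side was thus also measured where site 2, or both sites, were intact.

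From 48.65 to 48.85 Mb (4 windows), the other side of C, DEL averaged 0.25, 0.32 and 0.22 and CON 0.92, 1.00 and 0.92. The difference was nearly the same in each clone, at −0.68, −0.68 and −0.71. The 2 wild type genome 1 homologs averaged 0.68 and 0.66, above all 3 DEL values, and wild type genome 1 minus wild type genome 2 was −0.04. In the ∆COSN1 clones 2-28 and 2-33 the difference was −0.06 and 0.05. The ∆COSN12 control was itself early in this stretch: the genome 2 homologs of 39 other clones had a median of 0.72 (range 0.39 to 0.99), and 1 of the 39 lay above the ∆COSN12 CON mean of 0.95. Against the median of these homologs DEL was lower by a difference of −0.46, and against the wild type genome 1 homologs by −0.41, in place of −0.69 against its own CON.

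When the 2 wild type genome 1 homologs replaced CON in the fit, 0 of the 69 windows tested in the 4 Mb were called (limma; 4 later and 3 earlier at an unadjusted p under 0.05). The window nearest to the threshold was 48.7, with DEL minus wild type genome 1 of −0.48 (SE 0.15, adjusted p = 0.14), followed by 48.65 with −0.48 (SE 0.15, adjusted p = 0.156). On the side of A the same contrast was −0.29, −0.20 and −0.16 at 47.75, 47.8 and 47.85, and between −0.02 and 0.16 from 47.9 to 48.2. This contrast compares homologs of different clones and rests on 2 controls.

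Counting the order of the values alone, the 3 DEL values lay below the 3 CON values in 17 of 40 windows of the 2 Mb and above them in 2. Genome-wide all DEL were below all CON in 13.2% of windows. DEL was below CON in each of the 3 clones in 25 of the 40 windows, higher in each in 2 and mixed in 13, against a genome-wide share of 24.9% lower in each. In all 4 windows from 48.45 to 48.65 Mb every clone had DEL below CON, yet in none of them were the groups apart.

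The 3 clones had difference profiles of like shape. Across the 40 windows of the 2 Mb, the correlation of DEL minus CON was 0.79 for B6 and C6, 0.68 for B6 and D3 and 0.78 for C6 and D3. For the same pairs it was 0.62, 0.57 and 0.71 over the 4 Mb. The windows share smoothing and base composition, and all clones share the strain difference of the homologs. In the 2 Mb the sign was the same in 36, 27 and 31 of the 40 windows for these pairs, and the mean absolute gap was 0.19, 0.25 and 0.21. The SD over clones was 0.05 to 0.41 per window with a median of 0.15, and was largest at 47.5 Mb, where both homologs were late. D3 had the lowest difference of the 3 clones in 19 windows, C6 in 13 and B6 in 8. Over all autosomes the median difference was 0.00 in each clone. The area between the DEL and CON curves over the 2 Mb (∆area, RT times windows) was −7.64 in B6, −9.52 in C6 and −12.7 in D3. That of their mean curves was −9.96 against CON, −6.37 against the aggregate of wild type genome 2 homologs and −1.57 against the wild type genome 1 homologs.

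The domain was also read in 4 parts. Between B and C, from 48.45 to 48.65 Mb the difference was −0.38, −0.32 and −0.31 (mean −0.34 ± 0.04), all 4 windows were called later, and DEL stayed early at 0.83, 1.04 and 0.70. CON had a mean of 1.2 in this part, against 0.96 and 0.99 for wild type homologs of genome 2 and genome 1. DEL minus wild type genome 1 had a mean of −0.13 (−0.1, −0.05, −0.06 and −0.3 by window, none called). Against the aggregate of wild type genome 2 homologs the difference was −0.09 at 48.55 and was not called (limma, adjusted p = 0.47). At 48.6 that contrast was −0.23 and was called (adjusted p = 0.0353). In the 3 windows from A to B (48.3 to 48.45 Mb) DEL minus CON was 0.07, 0.21 and −0.16, with 0 of 3 windows called. In the 16 windows of the left flank (47.5 to 48.3 Mb) it was −0.33, −0.37 and −0.37, with 10 of 12 tested windows later and 0 earlier. In the 17 windows of the right flank (48.65 to 49.5 Mb) it was −0.05, −0.15 and −0.29, with 8 later and 4 earlier. The mean over the right flank is small because a delay next to C and an advance past 49.2 Mb offset each other.

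Genes were read at the window of their start. Dppa4 (48.25) had DEL of 0.90, 1.09 and 0.84 and CON of 0.89, 1.17 and 1.00, a difference of −0.08 ± 0.09 (adjusted p = 0.515). Dppa2 (48.3) had DEL of 1.02, 1.14 and 0.88 and CON of 0.96, 1.10 and 0.92, a difference of 0.02 ± 0.05 (adjusted p = 0.846). Both pluripotency genes and the start of Morc1 were thus early on the deleted homolog, with values that overlapped the control. Past C, 6 genes in 4 windows were called later on DEL than on CON of the same clones. After Trat1 came Retnlb and Retnla, resistin-like secreted proteins, in the window at 48.8, with DEL of 0.16, 0.20 and 0.13 and CON of 0.68, 0.93 and 0.66 (−0.59 ± 0.12, adjusted p = 7.09e-07). Their paralog Retnlg (48.85) had DEL of −0.04, 0.24 and 0.09 and CON of 0.40, 0.82 and 0.47 (−0.46 ± 0.10, adjusted p = 5.86e-05). Against the wild type genome 1 homologs the difference was −0.41 at Trat1, −0.27 at Retnlb and Retnla and −0.15 at Retnlg. None of these was called (limma, adjusted p = 0.289, 0.542 and 0.813).

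Dzip3, a ubiquitin ligase, and Cip2a, an inhibitor of protein phosphatase 2A, start from opposite strands in the window at 48.95. DEL was −0.16, −0.08 and −0.20 and CON 0.10, 0.41 and 0.29 (−0.41 ± 0.13, adjusted p = 0.000867). These were the genes whose start was late on DEL and early on CON in all 3 clones. The wild type genome 1 homologs had a mean of −0.02 there, close to 0, and DEL minus these homologs was −0.13 (limma, adjusted p = 0.851). For Myh15, a myosin heavy chain gene at 49.05, both homologs were late (DEL −0.34 to −0.44, CON −0.16 to −0.40; −0.09 ± 0.17, adjusted p = 0.366). Ift57 of the ciliary transport complex, Cd47, a surface protein that restrains phagocytosis, and Bbx, an HMG-box factor, start further away, and their differences were 0.08, 0.20 and 0.16 (adjusted p = 0.546, 0.126 and 0.0588).

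**Figure D3:**
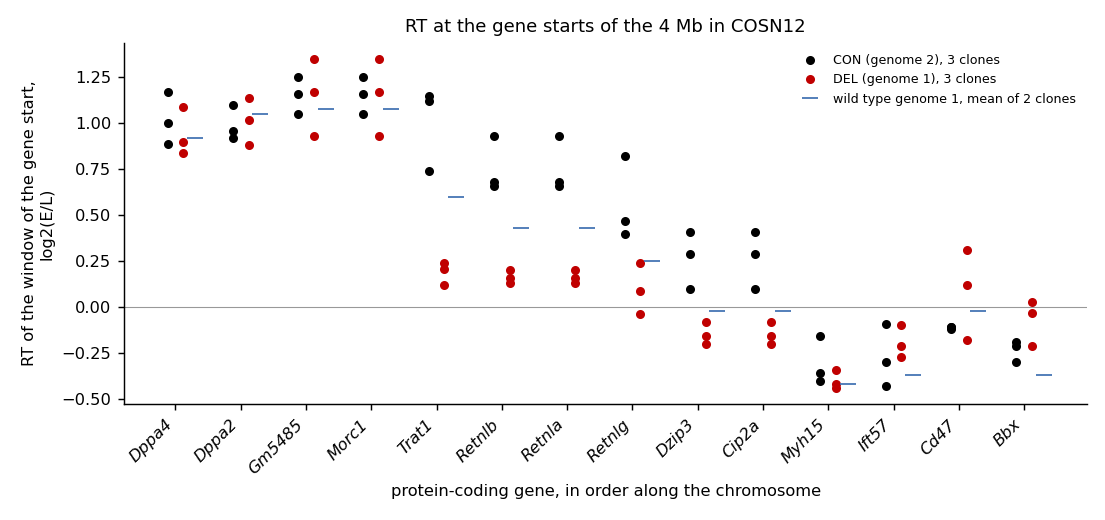
RT (log2 of early over late) in the window of each gene start, for the DEL and CON homologs of the 3 ∆COSN12 clones, in chromosomal order, with the mean wild type genome 1 homolog. Dppa4, Dppa2, Gm5485 and Morc1 overlap between DEL and CON, whereas Trat1 to Cip2a have all DEL values below all CON values (Trat1, 0.12 to 0.24 against 0.74 to 1.15); genes in the same window share their points.

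The stretch that stayed early was measured as the run with RT above 0 around C. DEL was above 0 in all 3 clones in 15 windows, from 48.1 to 48.85 Mb (750 kb), and each of the 15 was also early on CON in all clones. CON was above 0 in all 3 clones in 20 windows, from 48 to 49 Mb (1000 kb). With borders interpolated, the early stretch of DEL was 777, 897 and 816 kb in B6, C6 and D3 and that of CON 1010, 1020 and 1090 kb. DEL was shorter in each clone, by a mean difference of −212 ± 78 kb (exact sign-flip test within clones, two-sided, p = 0.25, the smallest that 3 clones allow). The left border of DEL moved inward by 95.8 ± 37.5 kb and the right border shifted by −117 ± 40.5 kb. The DEL borders were at 48.07 to 48.09 Mb and 48.87 to 48.96 Mb. In wild type genome 1 homologs the left border was at 48.09 and 48.08 Mb, and the right border at 48.95 and 48.98 Mb. Their widths were 868 and 901 kb, so that C6 (897 kb) lay between them and B6 and D3 below. With the wild type genome 1 homologs as control the mean shortening was −53.3 kb. Against CON of the same clones, with early set at RT above 0.5, it was −455 kb.

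**Figure D4:**
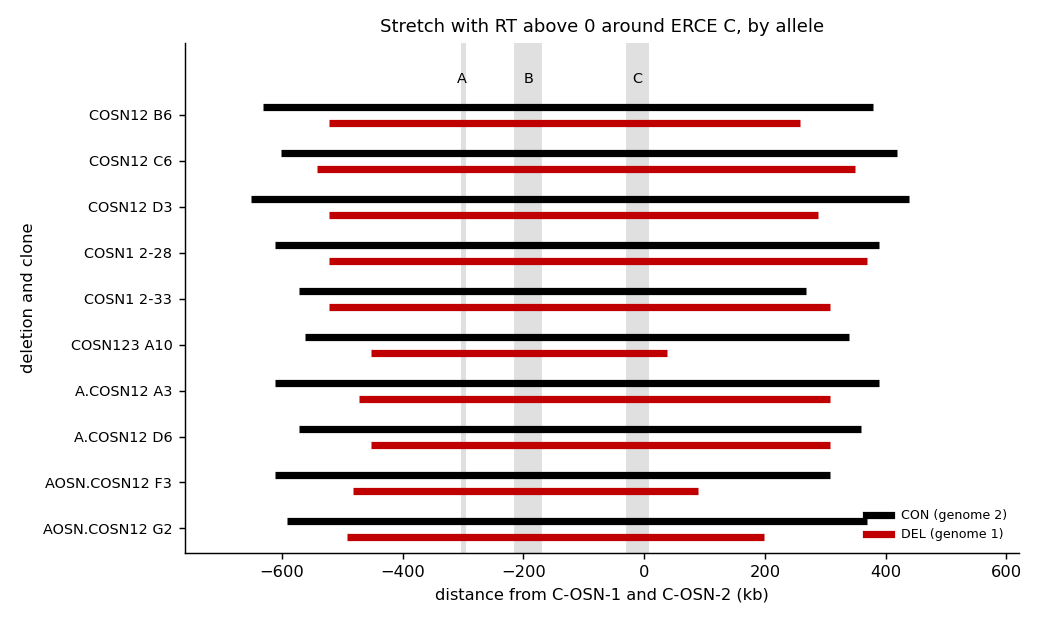
Stretch with RT above 0 around ERCE C on the CON (black) and DEL (red) homolog of each clone, by distance in kb from the deleted sites. In ∆COSN12 the red bars are 777, 897 and 816 kb long and span A, B and C, whereas in the ∆COSN123 clone the bar is 495 kb and ends close to C.

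Loss of site 2 was then read against ∆COSN1, a contrast in which the strain of the homologs cancels. The right border shift was −126, −72.0 and −151 kb in the ∆COSN12 clones and −17.0 and 36.2 kb in the ∆COSN1 clones, without overlap (exact permutation test over clones, p = 0.2, the smallest these numbers allow; adjusted p = 0.3 over the 3 deletions compared). The left border shift overlapped, at 108, 53.8 and 126 kb against 88.3 and 49.4 kb (exact permutation p = 0.4). Per window, ∆COSN12 was later than ∆COSN1 in 3 windows of the 64 tested in the 4 Mb and earlier in 0 (limma; 14 later and 4 earlier at an unadjusted p under 0.05). The background of this contrast was 0.301% of 35518 windows later and 0.239% earlier. The windows were 48.7 (−0.86, SE 0.14, adjusted p = 0.00284), 48.75 (−0.79, SE 0.15, adjusted p = 0.0135) and 48.8 (−0.52, SE 0.12, adjusted p = 0.0425). In these windows mean DEL was 0.27, 0.19 and 0.16 in ∆COSN12 and 0.75, 0.57 and 0.40 in ∆COSN1. Mean CON was 1.07, 1.00 and 0.76 in ∆COSN12 and 0.69, 0.59 and 0.47 in ∆COSN1, so part of the contrast lay in the intact homologs. At 48.7 the ∆COSN1 differences were 0.01 and 0.12, where those of ∆COSN12 had a mean of −0.80. None of these calls was made when the spread came from the 2 groups alone (0 windows), 1 was made with libraries as units, and the call at 48.8 was lost without B6 (adjusted p = 0.0618) and without C6 (adjusted p = 0.126). At the centre the contrast was small, from −0.16 at 48.25 to 0.08 at 48.35.

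Loss of site 3 was read from ∆COSN123, which is a single clone, so that its own spread between clones is not known. A difference particular to this clone cannot be told apart from the loss of site 3. The deleted homolog of ∆COSN123 had RT of 0.49, 0.61 and 0.59 at 48.3, 48.35 and 48.4, against 1.02, 1.24 and 1.15 in ∆COSN12. The contrast of ∆COSN123 and ∆COSN12 was −0.44, −0.50 and −0.46 in these windows and was not called (adjusted p = 0.768, 0.806 and 0.9). Over the 4 Mb 0 windows were called in either direction (limma; 11 later and 4 earlier at an unadjusted p under 0.05), against 0.0137% of windows later and 0.00275% earlier genome-wide. With the 4 cultures as units, 4 windows of the 4 Mb were called later, 2 of them in the 2 Mb. In that fit 239 of 34698 windows were later genome-wide and 218 earlier. The cultures are repeats of 1 clone, so these calls do not take in the spread between clones. From 48.65 to 48.85 Mb the ∆COSN123 homolog averaged −0.27 and that of ∆COSN12 0.26. This stretch was thus early in ∆COSN12 and late in the ∆COSN123 clone, although no window of it was called (adjusted p from 0.872 to 1.0). Site 3 is also intact in ∆A.COSN12, whose deleted homolog averaged 0.26 there, and in ∆AOSN.COSN12, where it averaged 0.01. The early stretch of the ∆COSN123 homolog was 495 kb and ended at 48.65 Mb, whereas in ∆COSN12 it ended at 48.87 to 48.96 Mb. On the left of the domain the values were alike, with means of −0.63 and −0.58 from 47.75 to 48.2 Mb.

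Where A or its OSN site was also removed, with site 3 intact, the values at the centre were lower than in ∆COSN12 but did not pass the threshold with all clones in the fit. From 48.25 to 48.45 Mb the mean difference of DEL and CON was −0.37 and −0.35 in the ∆A.COSN12 clones A3 and D6 and −0.43 and −0.26 in the ∆AOSN.COSN12 clones F3 and G2, all below the lowest ∆COSN12 clone (D3, −0.16). In the fit, ∆A.COSN12 minus ∆COSN12 was −0.35 at 48.3 (adjusted p = 0.175) and −0.43 at 48.35 (adjusted p = 0.134), and ∆AOSN.COSN12 minus ∆COSN12 was −0.33 and −0.45 (adjusted p = 0.17 and 0.0982). In the 2 Mb a single window was called in these comparisons, at 48.15 and later in ∆A.COSN12 (−0.43, adjusted p = 0.0399), and this call was lost when any ∆COSN12 clone was left out (adjusted p = 0.0518 to 0.115). Leaving out D3, the ∆COSN12 clone with the lowest DEL at the centre, gave calls there instead. These were at 48.4 in ∆A.COSN12 (−0.55, adjusted p = 0.0476) and at 48.35 and 48.4 in ∆AOSN.COSN12 (−0.57 and −0.54, adjusted p = 0.0406 and 0.0438).

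Over the 4 Mb, ∆A.COSN12 had 3 windows later and 3 earlier than ∆COSN12 of 52 tested, against 0.415% later and 0.336% earlier of 30386 windows. ∆AOSN.COSN12 had 4 later and 0 earlier of 61 tested, against 1.04% and 0.267% of 31474 windows (7 earlier at an unadjusted p under 0.05). The later windows other than 48.15 lay at the far edge, from 46.5 Mb. From 48.65 to 48.85 Mb, DEL averaged 0.26 in ∆A.COSN12, equal to ∆COSN12, and 0.01 in ∆AOSN.COSN12, whose clones F3 and G2 had differences of −0.99 and −0.64. The early width of DEL was 772 and 768 kb in ∆A.COSN12 and 573 and 685 kb in ∆AOSN.COSN12. The right border shift of ∆AOSN.COSN12 (−219 and −173 kb) lay beyond those of all 3 ∆COSN12 clones (exact permutation test over clones, p = 0.2, the smallest possible; adjusted p = 0.3), and that of ∆A.COSN12 (−79.9 and −43.0 kb) overlapped with them (p = 0.4 by the same exact test). All of these comparisons share the 3 ∆COSN12 clones.

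**Figure D5:**
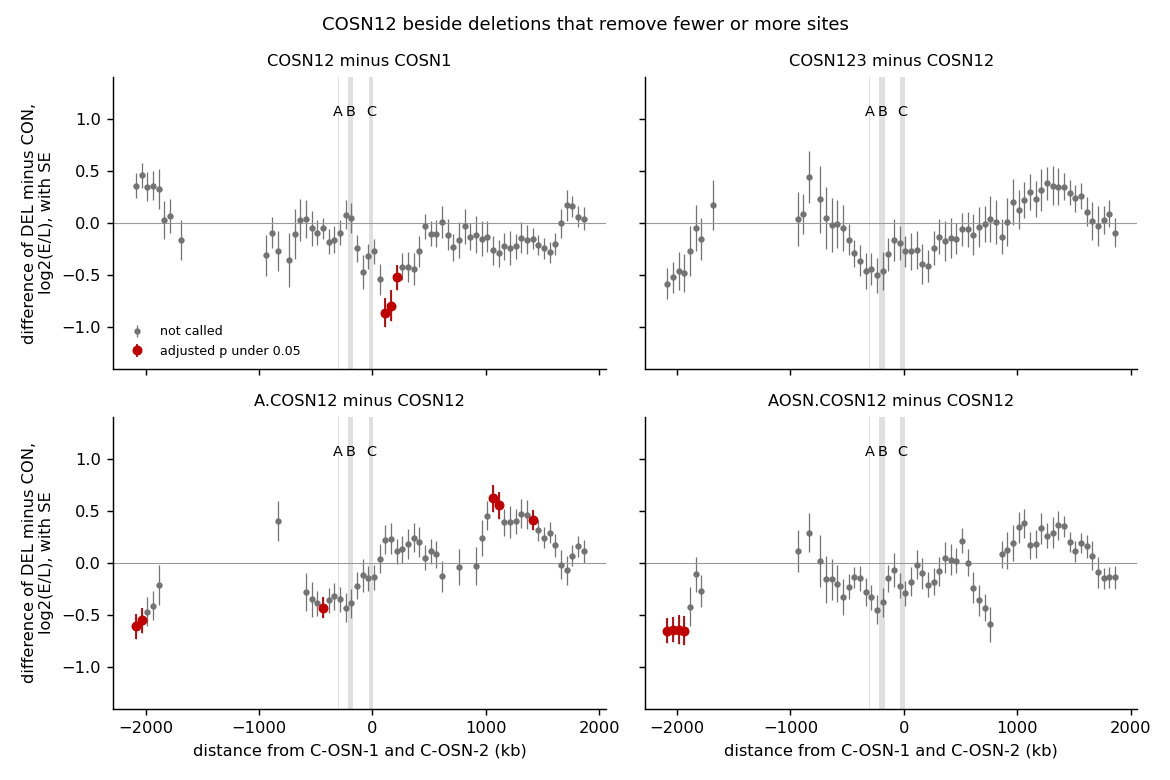
Differences between deletions in DEL minus CON (log2 units, with the standard error of the limma fit) by distance in kb from the deleted sites; red points have an adjusted p under 0.05. The 3 red points of ∆COSN12 minus ∆COSN1 (−0.86, −0.79 and −0.52) lie past C. In the 3 other comparisons the values near A and B are below 0 with no red point apart from the window at 48.15 Mb in ∆A.COSN12, and their lowest values lie at the left edge (−0.58, −0.61 and −0.65), where red points mark the calls of ∆A.COSN12 and ∆AOSN.COSN12.

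Away from the Dppa domain, the DEL minus CON profile of ∆COSN12 was set against that of the 23 other deletion groups (40 clones), where strain again cancels. Of 26735 windows on 16 autosomes with values in every group, 2.58% were later and 3.84% earlier in ∆COSN12. They formed 833 runs of neighbouring windows, 434 of them of 1 window. Chromosome 16 had the largest share of called windows outside the 4 Mb, 9.27%, and chromosome 15 the smallest, 4.03%. The calls in the Dppa domain thus stand beside differences of these clones elsewhere. The run with the largest mean difference was at chr1:83850001-84500000, over Pid1, which encodes a phosphotyrosine-binding protein. Its DEL minus CON was 0.15, 0.18 and 0.16 in B6, C6 and D3, below all 40 other clones (0.60 to 1.59).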

How the data were processed

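E/L Repli-seq was done on F121-9 mESCs and CRISPR-edited clones. Cells were labelled with BrdU (100 µM, 2 h) and sorted into early and late S phase. Per the methods and the submitters' processing notes, the authors used TrimGalore and cutadapt for trimming, bowtie2 for alignment (N-masked mm10), SNPsplit to assign reads to genome 1 (129) or genome 2 (CAST), Samtools against duplicates and bedtools for counts in 50 kb windows (versions not given in the sources used here). The deposited values are log2 ratios (early over late) after the authors' scaling, quantile normalization and loess smoothing over 300 kb. Smoothing spreads a local change over neighbouring windows, and quantile normalization fixes the overall distribution of each profile. Read counts were not used here, so the depth is unknown and precision comes from the spread between clones.

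All 138 columns of values (66 libraries, 49264 windows) were matched to samples by name. Repeat cultures of a clone were averaged. DEL minus CON of each clone was fitted with limma 3.58.1 (R 4.3.3), one-way over the 24 groups (43 clones) with the deletion on genome 1, so that all share 1 estimate of the spread. p-values were adjusted by Benjamini-Hochberg over all windows tested (a value in all units compared and in 80% of all units) and called at 0.05. The homologs of a clone come from the same cells and were therefore paired. ∆area is the trapezoid area over 2 Mb. Its share is the percentage of 2 Mb autosomal regions whose area had the same size or more, leaving out regions where other lines differ between homologs by 0.5 or more in 25% of windows. Widths were tested by exact permutation or sign-flip tests (scipy 1.17.1). In the main fit, limma p-values measure the spread between clones within all 24 groups, not that of the ∆COSN12 clones alone. The ∆COSN12 clones were made in the ∆COSN1 line and may share an edited parent clone. Alternatives changed the units, groups, control, window filter, centring, clones and thresholds, and scripts were tested on simulated data.

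Named windows were those of protein-coding gene starts in the 4 Mb, of ERCEs and deleted sites, of the largest delay and advance and the smallest difference, and the 3 runs elsewhere with the largest mean difference. Windows at 47.9, 48, 48.45 to 48.7 and 49.2 to 49.4 Mb, the stretches from 47.75 and 48.65 Mb, and their values were chosen after values were seen. Members, lists and tests were chosen with earlier results of these data known. Sequences are from mm10 (site sequences) and the study's guides. Gene positions come from the GENCODE annotation of mm10 and promoters from RefSeq.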

Additional observations from a re-analysis of the deposited data

Results flagged for a closer look

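In these windows and runs the difference of DEL and CON in ∆COSN12 differed from that of other lines by the test of the difference itself (limma, adjusted p under 0.05), and none of their causes was tested. Against ∆COSN1, ∆COSN12 was lower by −0.86 at 48.7 Mb, −0.79 at 48.75 Mb and −0.52 at 48.8 Mb, next to C on the side away from B. Part of this lay in CON, which was higher in ∆COSN12 than in ∆COSN1 (1.07 against 0.69 at 48.7 Mb). ∆A.COSN12 minus ∆COSN12 was −0.43 at 48.15 Mb, inside the domain. At the edge of the 4 Mb the same contrast was −0.61 and −0.55 at 46.5 and 46.55 Mb, and ∆AOSN.COSN12 minus ∆COSN12 was −0.65, −0.64, −0.64 and −0.65 in the windows from 46.5 to 46.65 Mb. In these edge windows ∆COSN12 minus ∆COSN1 was 0.36, 0.46, 0.35 and 0.36 (adjusted p = 0.203, 0.0711, 0.298 and 0.281). At 46.5 Mb, DEL was −0.21 in ∆COSN12, −0.28 in ∆A.COSN12 and −0.44 in ∆AOSN.COSN12, and CON was −0.32, 0.21 and 0.09. At 46.65 Mb, ∆AOSN.COSN12 had DEL of −0.86 against −0.43 in ∆COSN12 and CON of −0.29 against −0.50. Past the domain, ∆A.COSN12 minus ∆COSN12 was 0.62, 0.55 and 0.41 at 49.65, 49.7 and 50 Mb. There DEL was −0.11 against −0.20 and CON −0.81 against −0.27 at 49.65 Mb. At 50 Mb DEL was 0.36 against −0.13 and CON −0.14 against −0.22.

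Away from chromosome 16, 3 runs had the largest mean differences between ∆COSN12 and the other lines. At chr1:83850001-84500000 (13 windows, Pid1) it was −0.85. DEL minus CON was 0.17 ± 0.01 in the 3 ∆COSN12 clones and 0.60 to 1.59 in 40 other clones, with 1.09 and 1.24 in the ∆COSN1 clones and 1.03 and 1.08 in ∆A.COSN12. The homolog of genome 1 differed more, at −0.37 in ∆COSN12 against a median of 0.33 in the other clones, while genome 2 was −0.54 against −0.71. At chr7:88250001-88300000 (1 window, Ctsc, a lysosomal protease) the difference was −0.84, but the ∆COSN12 clones themselves spread from −0.67 to 0.32. At chr3:49850001-49900000 (1 window, no gene start named) it was −0.77, with −0.78, −0.81 and −0.75 in the ∆COSN12 clones and −0.38 to 0.61 in 36 others.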

How the results depend on the processing

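Of the named windows, 15 were followed through alternatives for DEL minus CON in ∆COSN12, giving 150 values, of which 131 kept direction and call, 10 lost and 4 gained the call, and 5 changed sign, none of them called. The sign changed to 0.02 at 48.25 Mb against the aggregate of wild type genome 2 homologs and against wild type genome 1 homologs, to −0.03 at 48.3 and 0.02 at 49.05 Mb against the latter, and at 48.35 Mb it ran from −0.05 (without C6) to 0.21 (without D3) leaving out a clone. Leaving out a clone, ∆COSN12 minus ∆COSN1 ran from −0.08 (without C6) to 0.19 at 48.35 Mb, from −0.05 (without C6; −0.02 without B6) to 0.21 at 48.4 Mb and from −0.11 to 0.06 (without D3) at 49.05 Mb. At 49.05 Mb ∆A.COSN12 minus ∆COSN12 ran from −0.04 (without D3) to 0.13 and ∆AOSN.COSN12 minus ∆COSN12 from −0.07 (without D3) to 0.10. With wild type genome 1 homologs as control the count later on DEL was 0 in place of 22 and the count earlier 0 in place of 8. Without pairing of the homologs of a clone (no replicate block) 18 windows were later and 1 earlier. The count earlier was also 1 with ∆COSN12 alone in the fit, 5 with any window valued in 2 clones, 15 with the aggregate of wild type genome 2 homologs, 4 with a difference of 0.3 or more required, and 2 to 7 leaving out a clone (2 without B6, 2 without C6). ∆COSN12 minus ∆COSN1 had 1 later window with libraries as units, 0 with the spread from those groups alone, and 1 earlier window with the COSN1.2.8k clones added. ∆COSN123 minus ∆COSN12 had 4 later windows with libraries as units, where the 4 cultures of its 1 clone count separately. ∆A.COSN12 minus ∆COSN12 had 0 later and 0 earlier both with libraries as units and with only the groups compared, 1 earlier with any window valued in 2 clones, and 0 to 2 earlier leaving out a clone (0 without C6, 1 without D3). ∆AOSN.COSN12 minus ∆COSN12 had 2 later with libraries as units, 0 with only the groups compared, and 1 earlier after centring. Elsewhere in the genome, later windows numbered 289 to 733 and earlier ones 370 to 1015 leaving out a clone (344 and 508 without B6, 289 and 370 without C6), in place of 690 and 1026. In the comparison with all other lines, only the groups compared is the same fit.

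The mean-curve ∆area of −9.96 was matched or passed in size by 6.28% of 41141 regions. It was −6.37 (29.4%) against the aggregate of wild type genome 2 homologs and −1.57 (70.6%) against wild type genome 1 homologs. With no region left out the share was 10.6%. It was −6.65 over 1 Mb (3.06% of 40104 regions), and −9.96 with 0.884% of 28841 regions when regions with a difference of 0.25 or more were left out. It ranged from −11.1 (without B6, 4.32%) to −8.58 (without D3, 11.6%) leaving out a clone. The width difference of −212 kb was −53.3 kb against wild type genome 1 homologs. Against CON it was −455 kb with early set above 0.5, and −256 to −180 kb leaving out a clone. The cause of these changes was not tested, except that fewer clones enter a fit that leaves one out. Depth is unknown, so it was not possible to say how much of the spread between clones is counting error.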
